A study of Mus musculus with 22 samples.

Results

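Kinesins and cytoplasmic dyneins are the motor proteins that carry cargo along microtubules, and their genes are described here in the mouse motor cortex. The set holds every gene whose symbol begins with Kif or Klc and a digit, or with Dync or Dynl. It comprises 50 of the 15297 genes counted and 521 of the 112460 deposited features, a feature being a region where sequenced RNA 5' ends lie. Of the 50 genes, 34 encode kinesin heavy or light chains and 14 encode dynein subunits. The other 2 match by name only, namely Kif1bp, which encodes a kinesin-binding protein, and Kif16bos, an antisense transcript.

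The tissue was M1, the primary motor cortex. The mice were male, of strain C57BL/6 and 16 to 20 weeks old, and were either wild type (WT) or BERKO, a line without estrogen receptor beta, the product of Esr2. A needle biopsy of the right side and a needle biopsy of the left side came from each mouse, which gave 22 biopsies from 6 WT and 5 BERKO animals. The design text counts 6 BERKO mice at entry and states that the submitters took out 1 BERKO sample as an outlier, and BERKO replicate 1 was not analysed here. STRT sequencing, which tags the 5' end of each RNA during reverse transcription, was run on 10 ng of RNA per biopsy. A biopsy is a mixture of cell types, so fewer cells of a type and less RNA per cell cannot be told apart in any value below.

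Most kinesins walk toward the fast-growing ends of microtubules, which in axons point away from the cell body, and cytoplasmic dynein walks the opposite way. Neurons depend on both, because synaptic vesicle precursors, mitochondria and RNA granules travel out along the axon while endosomes and worn organelles travel back. Kinesin-1 (Kif5a, Kif5b and Kif5c with the Klc light chains), kinesin-2 (Kif3a with Kif3b or Kif3c, and Kif17) and kinesin-3 (Kif1a and Kif1b) are the main carriers in nerve cells. Dynein is built on the heavy chain Dync1h1, with intermediate, light intermediate and light chains that bind cargo and the dynactin complex.

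Because the assay counts 5' ends, a read should mark the start of an RNA, and promoter sequence shows what lies before such starts. The RefSeq promoter table (build GRCm38.p6, strand as given) had entries for 37 of the 50 genes, with 43 starts. Of the 26 genes with enough reads to be tested, 18 had an entry, and Dynll2, Dync2li1, Kif5a and Kif5b had none. As a check of strand, the last 30 bases of the entry lay in a transcript of the gene for 35 of the 43 starts. The windows below are the 100 bases before an annotated start, 5' to 3' on the gene's strand. The first 5 belong to genes with most of their reads in the 5' UTR or upstream, and the last pair to genes whose reads lay mostly elsewhere. Capitals mark GGGCGG (the GC box) or CCAAT on either strand, and runs of capitals can hold overlapping matches.
Dynll1, chr5:115300991-115301090, minus strand: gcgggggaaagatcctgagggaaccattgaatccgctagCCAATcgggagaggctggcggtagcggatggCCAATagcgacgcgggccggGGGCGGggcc
Dynlrb1, chr2:155236508-155236607, plus strand: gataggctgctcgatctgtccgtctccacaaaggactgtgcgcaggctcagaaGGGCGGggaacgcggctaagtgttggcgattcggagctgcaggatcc
Kif3a, chr11:53567269-53567368, plus strand: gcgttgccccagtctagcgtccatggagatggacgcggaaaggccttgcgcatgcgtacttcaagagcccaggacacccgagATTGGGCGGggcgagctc
Kif1a, chr1:93101875-93101974, minus strand: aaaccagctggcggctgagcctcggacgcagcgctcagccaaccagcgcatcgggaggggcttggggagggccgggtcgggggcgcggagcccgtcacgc
Dync1i1, chr6:5725539-5725638, plus strand: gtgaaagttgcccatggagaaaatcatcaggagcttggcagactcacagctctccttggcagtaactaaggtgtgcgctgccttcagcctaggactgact
Klc1, chr12:111758768-111758867, plus strand: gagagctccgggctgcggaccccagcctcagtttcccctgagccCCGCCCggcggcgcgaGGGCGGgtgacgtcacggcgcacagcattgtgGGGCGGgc
Kif5c, chr2:49619186-49619285, plus strand: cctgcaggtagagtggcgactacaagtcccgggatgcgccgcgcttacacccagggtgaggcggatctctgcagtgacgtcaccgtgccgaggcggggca

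Over the 250 bases before each start, GGGCGG on either strand stood in 67.4% of the 43 motor gene promoters, against 32.7% of the 32851 promoters in the table. CCAAT on either strand stood in 37.2% against 33.9%, and TATAAA in 9.30% against 12.4%. The median GC content of these windows was 62.0% for the motor genes and 52.4% for all promoters. Dync1i1, with 40.8% GC, held none of the 3 motifs in its window, while Dynll1 held CCAAT boxes and a GC box at 68.8% GC. A match is a description of letters only. The promoters of the whole table were not limited to genes read in these biopsies, so the differences are not shown to be particular to motor genes.

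The counted 5' ends of many motor genes did not lie at an annotated start. Of the 26 genes with enough reads to be tested, 18 had over 50% of their reads in features of the 5' UTR or just upstream, and 8 had less. Dynll1 had 99.0% of its 13780 reads there, Dync2li1 98.5%, Dynlrb1 90.4%, Dync1i1 82.9%, Kif3a 82.0%, Kif5a 75.0% and Kif1a 70.1%. By contrast, Dynll2 had 89.7% of its 2250 reads in a single 3' UTR feature and only 1.96% at its 5' end. Dync1h1 had 95.9% and Klc1 82.8% of their reads in coding sequence (CDS), and Kif1b had 57.0% in the 3' UTR and 0.71% at the 5' end. Kif5c had 53.5% in CDS and 35.1% in the 3' UTR. For these genes a count is therefore a count of RNA 5' ends inside the gene.

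**Figure D1:**
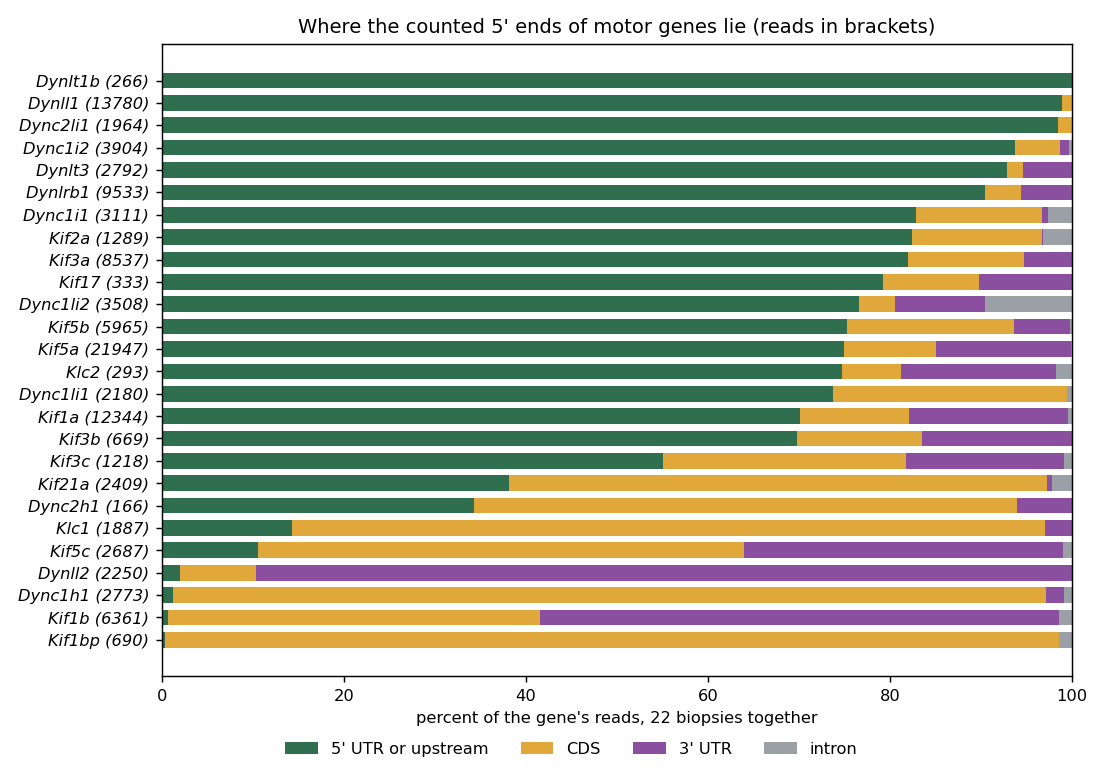
Stacked bars give, for each of the 26 tested motor genes, the percent of its reads (22 biopsies together, number in brackets) in 5' UTR or upstream, CDS, 3' UTR and intron features. Dynlt1b and Dynll1 are almost wholly at the 5' end, while Dynll2, Dync1h1, Kif1b and Kif1bp have nearly all of their reads inside the gene.

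Total reads per biopsy ranged from 249751 (left biopsy of BERKO replicate 5) to 2018833 (right biopsy of WT replicate 1), with 2204529 ± 570075 per WT mouse (SD, n = 6) and 1406440 ± 250443 per BERKO mouse (SD, n = 5). Esr2 had 0 reads in 19 biopsies and summed to 3 reads in WT and 10 in BERKO, too few to check the genotype labels. Cortical identity was present in the form of the excitatory neuron markers Slc17a7, Camk2a and Nrgn, at means of 138, 1559 and 1962 CPM (gene read counts scaled to a common library size after TMM) over the 11 mice, against 0.789 CPM for the striatal marker Drd1. CDS and 3' UTR features held 13.9 ± 1.80% of reads in WT mice (11.3 to 16.7) and 17.6 ± 1.27% in BERKO mice (16.1 to 19.1), ranges that overlapped narrowly. The right and left biopsies of WT replicate 1 and the left biopsy of WT replicate 2 stood apart from the others in earlier results of these data. Values without these 3 libraries are given for the Dynll2 tests, except that of the left side alone. They are also given for other values, among those recomputed, that moved by over 1.5 times. Codes in the column names of the count table, which have the form of plate wells, differ between genotypes and between sides, so plate position cannot be told apart from either.

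The 50 genes together had 113569 reads, of which the 10 genes highest in CPM held 78.4%. These were Kif5a, Dynll1, Kif1a, Dynlrb1, Kif3a, Kif1b, Kif5b, Dync1i2, Dync1li2 and Dync1i1. The levels below are CPM of 5' ends and are not divided by gene length, so each gene is compared between mice. Shares within a family are shares of counted 5' ends and not of transcripts, and the 5' UTR or upstream part of these reads was 75.0% for Kif5a and 75.3% for Kif5b but 10.5% for Kif5c. Within kinesin-1, Kif5a, the neuronal heavy chain, supplied 69.8 ± 6.66% of heavy chain reads in WT mice and 72.1 ± 5.20% in BERKO mice. Kif5b, the widely expressed heavy chain, supplied 21.4 ± 6.02% and 18.9 ± 2.88%, and Kif5c the remaining 8.81 ± 1.61% and 8.97 ± 3.19%. Those shares overlapped between genotypes for every heavy chain.

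**Figure D2:**
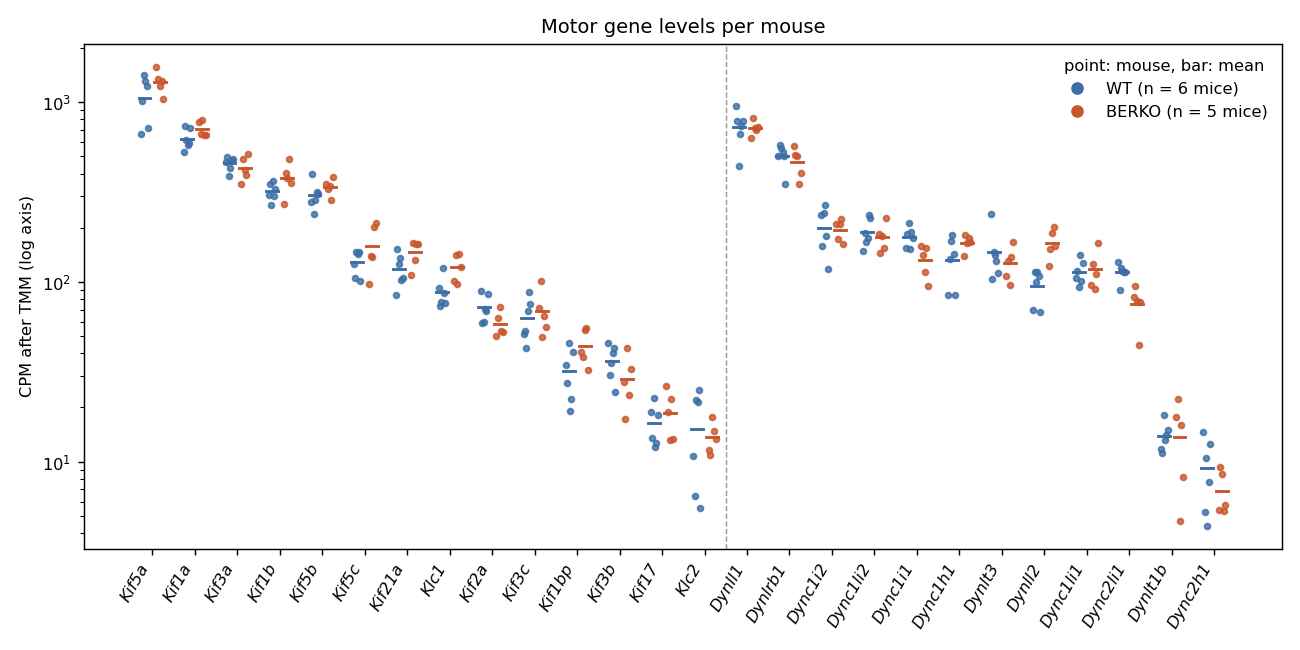
Levels of the 26 tested motor genes in CPM after TMM on a log axis, kinesins left and dyneins right of the dashed line, with 1 point per mouse (both sides summed) and a bar at the mean of 6 WT or 5 BERKO mice. The point clouds of the genotypes overlap for every gene except Dynll2, where all 5 BERKO mice lie above all 6 WT mice.

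The first comparison asked whether motor gene levels differed between BERKO and WT mice, with both biopsies of a mouse summed. Of 9025 genes tested, 7 (0.0776%) passed an adjusted p of 0.05 in edgeR's quasi-likelihood test with Benjamini-Hochberg adjustment, and 0 of the 26 motor genes did. At an unadjusted p under 0.05 there were 4 motor genes (Dynll2 and Klc1 higher in BERKO, Dync2li1 and Dync1i1 lower), and 895 of all genes (9.92%). DESeq2 called 1 motor gene, Dynll2, among 34 of the 6725 genes it gave an adjusted p (0.506%). The 26 genes divided evenly, 13 with a positive and 13 with a negative log2 difference, with a median of 0.02 against -0.01 over all genes. Spike-in scaling raised the median of all genes to 0.19 and made 19 of the 26 positive, so the signs below hold relative to TMM scaling. Without the 3 WT libraries the lowest adjusted p among the named motor genes was 0.122, that of Dynll2, in edgeR's quasi-likelihood test. In that fit 4 of 26 motor genes and 669 of all 8436 genes had an unadjusted p under 0.05. Levels of 120 of the 9025 genes (1.33%) did not overlap between genotypes, and 1 of the 26 motor genes, Dynll2, was among them.

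Dynll2 encodes dynein light chain LC8 type 2, a small subunit that also binds many partners outside dynein, including myosin V. Its level in WT mice ran from 67.7 CPM through a median of 103 to 114, and the 5 BERKO mice stood at 122, 152, 186, 202 and 157 CPM. Every BERKO mouse was above every WT mouse, and WT replicates 1 and 6 were the lowest of all, at 69.3 and 67.7 CPM. The log2 difference was 0.78 ± 0.19 (SE), with an adjusted p of 0.136 in edgeR's quasi-likelihood test. Leaving out each mouse in turn gave 0.70 to 0.87, with adjusted p from 0.0827 to 0.363. Without the 3 WT libraries that stood apart it was 0.73 ± 0.18 (adjusted p = 0.122). Adjusted p was 0.0307 in DESeq2, 0.0446 with spike-in scaling and 0.0321 with limma on the deposited ratios, within a range of 0.0307 to 0.139 over the 8 alternatives that did not leave out single mice in turn. Spike-in scaling called 45 of 9025 genes (0.499%) and limma 97 of 9025 (1.07%).

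The Dynll2 difference lay in its 3' UTR feature (chr11, position 87793394 in mm9, minus strand), the same feature that held 89.7% of its reads. That feature averaged 84.7 ± 21.6 CPM in WT and 150 ± 34.1 in BERKO mice, a log2 difference of 0.77 ± 0.20 (adjusted p = 0.156, edgeR's quasi-likelihood test over 13128 features). Without the 3 WT libraries that difference was 0.75 ± 0.20 (adjusted p = 0.215, the same test over 11594 features). At its 5' end Dynll2 averaged 1.54 ± 1.56 CPM in WT and 3.50 ± 2.00 in BERKO, levels of very few reads per mouse. Its close paralog Dynll1, read almost wholly at the 5' end, was at 727 ± 168 and 718 ± 67.7 CPM, a log2 difference of -0.02 ± 0.15 (0.0862 without the 3 WT libraries). Dynll2 therefore made up 12.2 ± 4.29% of the joint Dynll1 and Dynll2 reads in WT and 18.5 ± 2.87% in BERKO mice, ranges that overlapped. Dynll1 shares stretches of at least 95% identity with 141 other genes in GENCODE transcripts, so its count is uncertain, while Dynll2 has no such copy. Kif5b, Dync1i2, Kif2a, Dync1li1, Kif3a and Kif1b share such stretches, at most 104 to 170 bases long, with 41, 35, 11, 6, 4 and 1 other genes, and their counts carry the same limit.

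The summed excitatory neuron markers were higher in the BERKO mean, as Dynll2 was. Their summed level was 3177 ± 843 CPM in WT mice (2074 to 4602) and 4807 ± 820 in BERKO mice (3820 to 5675). Most of that sum was Camk2a (1286 and 1888 CPM) and Nrgn (1546 and 2461). A positive log2 difference was found for 9 of 10 tested markers, but Neurod6 (0.09) and Rorb (0.05) hardly differed, and Fezf2 was at -0.22. Of the 10 markers edgeR's quasi-likelihood test called 0 and DESeq2 called Slc17a7. In the edgeR test 3 had an unadjusted p under 0.05, a level that 9.92% of all genes reached. Most other lists also had more positive than negative differences, with 10 of 10 astrocyte markers (median 0.25), 8 of 10 microglial (0.36), 9 of 10 oligodendrocyte (0.29), 6 of 6 endothelial (0.44), 6 of 7 pericyte (0.60) and 5 of 6 meningeal fibroblast markers (0.63). DESeq2 called Aqp4 among the astrocyte markers (0.89) and Sox10 among those of oligodendrocyte precursors (-1.80). Of 7 inhibitory neuron markers 5 had a negative difference (median -0.26), but their summed level was higher in the BERKO mean, at 1738 ± 211 CPM in WT and 1929 ± 221 in BERKO mice, ranges that overlapped. Only Npy (661 CPM in WT and 962 in BERKO mice) and Vip (79.3 and 135) had positive differences. Gad1, with the smallest p of that list, was lower in BERKO mice, at 171 ± 20.1 CPM in WT and 117 ± 15.4 in BERKO mice. Its log2 difference was -0.54 ± 0.16 (adjusted p = 0.228, edgeR's quasi-likelihood test). An unadjusted p under 0.05 in edgeR's quasi-likelihood test was found for 4 astrocyte, 4 microglial and 3 inhibitory neuron markers (Gad1, Npy and Vip). The same held for 2 pericyte, 2 meningeal fibroblast, 1 endothelial, 1 oligodendrocyte precursor and 0 oligodendrocyte markers. Of the markers in those lists only Abcc9, of the pericyte and smooth muscle list, had 0 reads. The share of these markers and of the CDS and 3' UTR shift in the motor gene values was not tested.

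Among the kinesins the lowest unadjusted p was that of Klc1, a light chain that links kinesin-1 to cargo. Klc1 ran from 73.8 CPM through a median of 81.9 to 119 in WT, and the BERKO mice stood at 101, 141, 97.6, 142 and 121 CPM. Of these, 3 BERKO mice lay above every WT mouse and the rest overlapped. The log2 difference was 0.46 ± 0.18, with an adjusted p of 0.408, and 0.42 ± 0.19 without the 3 WT libraries. Kif5a ran from 662 through 1114 to 1407 CPM in WT, with WT replicates 1 and 6 lowest, and stood at 1567, 1342, 1223, 1309 and 1043 CPM in BERKO, a log2 difference of 0.30 ± 0.18 (adjusted p = 0.582), or 0.17 ± 0.14 without the 3 WT libraries. Kif5c (128 ± 21.2 and 158 ± 48.4 CPM, log2 0.30 ± 0.19) and Kif5b (304 ± 53.6 and 337 ± 34.9 CPM, log2 0.15 ± 0.14) also had positive estimates, and their levels overlapped between genotypes. Summed, the 3 kinesin-1 heavy chains were at 1486 ± 318 CPM in WT and 1791 ± 143 in BERKO.

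Kif21a, a kinesin-4 motor that limits microtubule growth at the cell cortex, averaged 117 ± 24.7 CPM in WT and 146 ± 25.0 in BERKO mice (log2 0.32 ± 0.18, adjusted p = 0.558), and its difference was 0.16 ± 0.18 without the 3 WT libraries. The kinesin-3 motors Kif1a, a carrier of synaptic vesicle precursors, and Kif1b, which carries mitochondria and vesicle precursors, had log2 differences of 0.18 ± 0.12 and 0.24 ± 0.14. Kif1a was at 626 ± 82.1 and 708 ± 66.8 CPM, and Kif1b at 319 ± 35.5 and 377 ± 77.2 CPM. Kif1bp, which binds and restrains several kinesins, was at 31.7 ± 10.5 and 44.2 ± 10.1 CPM (0.47 ± 0.28).

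The kinesin-2 subunits Kif3a and Kif3b and the microtubule-depolymerising kinesin Kif2a had estimates below 0, that of Kif3a turning positive (0.15) with spike-in scaling. Kif3a, the shared subunit of the heterotrimeric kinesin-2, averaged 455 ± 38.3 CPM in WT and 432 ± 66.9 in BERKO mice (log2 -0.08 ± 0.13, and -0.0032 without the 3 WT libraries). Its partners Kif3b and Kif3c had log2 differences of -0.35 ± 0.29 and 0.12 ± 0.23, and Kif17, a dendritic kinesin-2, 0.19 ± 0.37. Kif2a was at 72.2 ± 12.8 and 58.1 ± 9.16 CPM (-0.31 ± 0.21), with 3 of 5 BERKO mice below every WT mouse.

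The dynein subunits with the lowest unadjusted p after Dynll2 had negative estimates. Dync2li1, the light intermediate chain of dynein-2, the motor of retrograde transport in cilia, ran from 89.6 CPM through 114 to 129 in WT and stood at 82.4, 94.5, 78.2, 44.6 and 77.3 CPM in BERKO. All but the second of these BERKO values lay below every WT mouse. Its log2 difference was -0.58 ± 0.19, with an adjusted p of 0.314 (0.258 to 0.551 on leaving out each mouse). Without the 3 WT libraries Dync2li1 was at -0.52 ± 0.21 and Dync1i1 at -0.48 ± 0.17. Dync1i1, the neuron-enriched intermediate chain that attaches dynein to dynactin, ran from 152 through 179.9 to 211 CPM in WT and stood at 158, 141, 113, 154 and 95.1 CPM in BERKO (log2 -0.43 ± 0.17, adjusted p = 0.388). In BERKO, 3 of the 5 values lay below every WT value.

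The levels of the other dynein chains overlapped between genotypes. The heavy chain Dync1h1, the motor subunit itself, averaged 133 ± 40.7 CPM in WT and 165 ± 16.3 in BERKO mice (log2 0.32 ± 0.19, adjusted p = 0.585, and 0.17 without the 3 WT libraries), and WT replicates 1 and 6 were again its lowest, at 84.7 and 85.0 CPM. The second intermediate chain, Dync1i2, was at 200.1 ± 57.4 and 195 ± 26.7 CPM (-0.04 ± 0.18, and -0.0186 without the 3 WT libraries), and the light intermediate chain Dync1li2 at 189.6 ± 34.1 and 178 ± 31.3 (-0.09 ± 0.16, and -0.19 without the 3 WT libraries). Dynlrb1, a roadblock light chain, was at 501 ± 81.2 and 465.7 ± 87.0 CPM (-0.11 ± 0.15). The negative signs of Dync1i2, Dync1li2, Dynlrb1 and Dynll1 turned positive with spike-in scaling. The remaining tested subunits Dync1li1, Dynlt3, Dynlt1b and Dync2h1, and the light chain Klc2, had log2 differences from -0.42 to 0.06. Dync1i1 made up 47.9 ± 8.90% of the intermediate chain reads in WT and 40.2 ± 4.14% in BERKO mice, which overlapped.

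**Figure D3:**
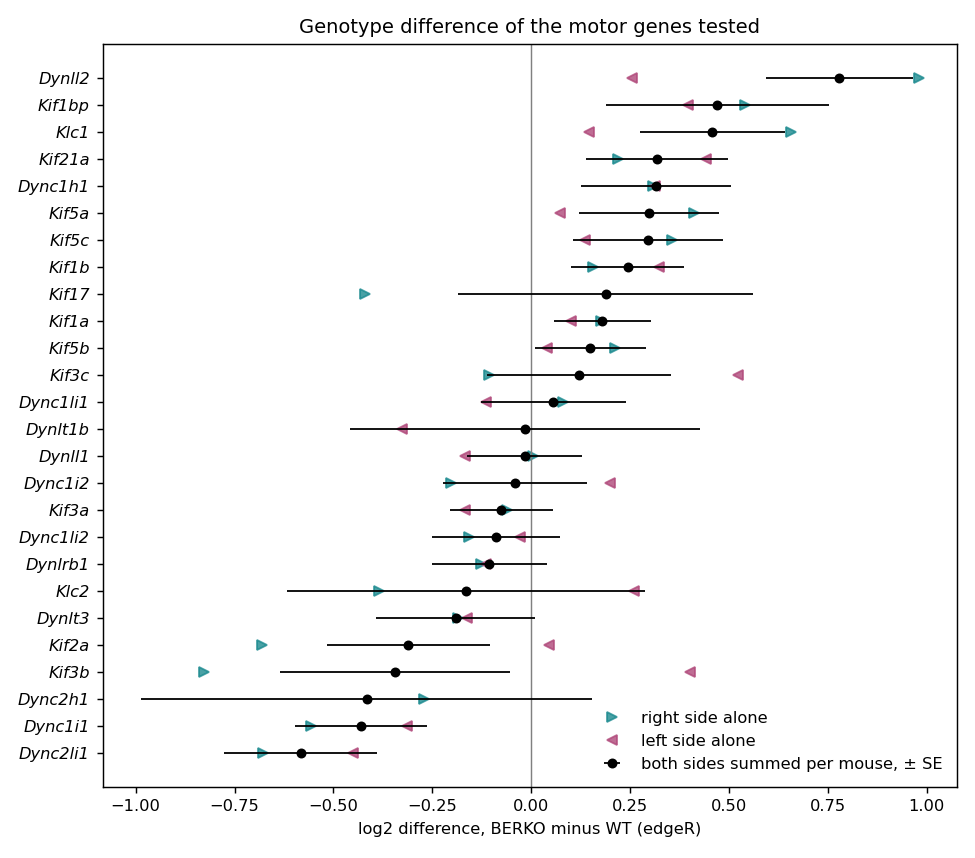
Log2 difference of BERKO minus WT for the 26 tested motor genes from edgeR, both sides summed per mouse (black points, bars ± SE) and each side tested alone (triangles, where the gene passed the filter on that side). Dynll2 has the highest estimate (0.78) and Dync2li1 the lowest (-0.58), and the right side estimate of Dynll2 is 0.98.

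Kinesins summed were at 3323 ± 323 CPM in WT (2787 to 3588) and 3793 ± 101 in BERKO mice (3644 to 3886), and the genotypes did not overlap, a log2 difference of 0.19. The largest part was Kif5a, at 1054 ± 313 and 1297 ± 190 CPM. The sums of kinesin-1 heavy chains, light chains, kinesin-3 and kinesin-4 were higher in the BERKO mean. Those of kinesin-2 (571 and 547.5 CPM) and kinesin-13 (72.5 and 58.4) were lower. How many sums of other gene sets lack overlap was not counted. Dyneins summed were at 2425 ± 168 and 2366 ± 88.2 CPM, which overlapped (-0.04). These sums carry no test, since the set was chosen by name with results known. With spike-in scaling the sums differed by 0.39 for kinesins and 0.15 for dyneins. The kinesin sum lay above the median gene by 0.20 with either scaling. A change of scaling moves all genes of a mouse together, so this distance could hardly change and is no second check. Leaving out each mouse in turn gave 0.15 to 0.21 for kinesins. Without the 3 WT libraries, an alternative added after the values were seen, the kinesin sum differed by 0.14, with WT mice at 3054 to 3562 CPM and BERKO mice at 3626 to 3847, and the dynein sum by -0.0114.

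At the level of single features, 0 of 86 tested motor gene features passed, against 15 of 13128 features in all (0.114%), by edgeR's quasi-likelihood test. At an unadjusted p under 0.05 there were 10 motor gene features, 8 of them higher in BERKO, and 1518 of all features (11.6%). The feature at the Dync2li1 start (chr17, 85025816, mm9) averaged 113 ± 13.1 CPM in WT and 71.2 ± 15.2 in BERKO, without overlap (log2 -0.73 ± 0.19, adjusted p = 0.179). The 5' UTR feature of Dync1i1 (chr6, 5675790, mm9) was at 153 ± 13.8 and 102 ± 25.3 CPM, also without overlap (-0.65 ± 0.18, adjusted p = 0.187). How many of all features lacked overlap between genotypes was not counted, so such cases among motor gene features cannot be set against a share. For Dync1i1, the reads outside the 5' end went the other way, at 24.6 ± 13.9 and 30.5 ± 8.98 CPM, so that the 5' share was 86.6 ± 5.89% in WT and 76.6 ± 7.18% in BERKO mice.

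A CDS feature of Dync1h1 (chr12, 111904234, mm9) stood at 15.0 ± 6.00 CPM in WT and 32.0 ± 5.78 in BERKO, likewise without overlap (log2 1.05 ± 0.34, adjusted p = 0.238). Kif1a had a second 5' UTR feature 19423 bases downstream of its main one in mm9, and RefSeq likewise lists a second Kif1a start 19394 bases downstream in GRCm38. This downstream feature (chr1, 94979017, mm9) held 2.29% of Kif1a reads and averaged 10.4 ± 4.68 CPM in WT and 25.4 ± 10.8 in BERKO mice (1.25 ± 0.44, adjusted p = 0.264), with 4 of 5 BERKO mice above every WT mouse. The main Kif1a feature (chr1, 94998440, mm9) was at 440.1 ± 88.9 and 453 ± 88.4 CPM, a log2 difference of -0.01 ± 0.16.

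The direction of motor gene features went with their class, as it did for all features. Of 23 features in the 5' UTR or upstream, 5 were higher in BERKO, with a median log2 difference of -0.15, and of 7263 such features in all 32.3% were higher, with a median of -0.17. Of 52 CDS features 39 were higher (median 0.28), against 75.2% of 2996 (median 0.38), and of 10 features in the 3' UTR 8 were higher (median 0.17), against 79.5% of 1699 (median 0.39). Correspondingly, 6 of the 18 genes read mainly at the 5' end had a positive gene-level difference (median -0.06), against 7 of the 8 genes read mainly inside the gene (median 0.32). That division by read position was made after the values were seen and carries no test.

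**Figure D4:**
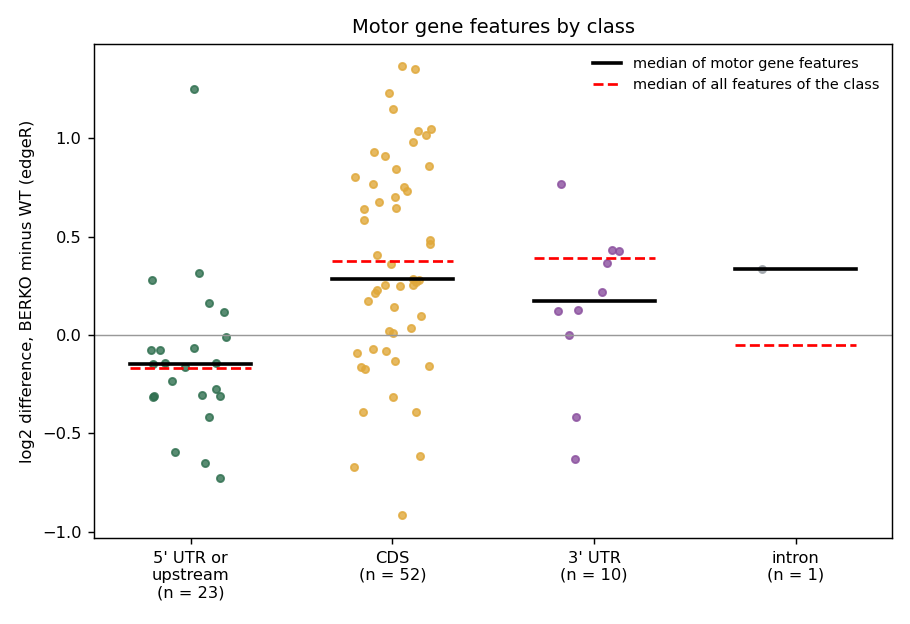
Each point is the log2 difference of BERKO minus WT (edgeR) for a tested feature of a motor gene, by feature class, with the median of the motor gene features (black line) and of all tested features of the class (red dashed line). The 23 features at 5' ends have a median of -0.15 and the 52 CDS features a median of 0.28, and the lines for all features lie at -0.17 and 0.38.

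Kif3a shows the same division within a gene. Its reads at the 5' end were at 384 ± 44.0 CPM in WT and 330 ± 63.7 in BERKO mice, and its other reads at 71.4 ± 13.8 and 102 ± 14.4 CPM. The 5' share of Kif3a was thus 84.2 ± 3.68% in WT and 76.2 ± 3.89% in BERKO mice. Among 15 genes with at least 10 CPM in both parts in WT, the 5' part was higher in BERKO for 5 and the remaining part for 12. The remaining part had the larger log2 difference in 9 of the 15. In the other 6 (Kif5a, Kif5b, Kif3c, Kif2a, Dync1i2 and Dynlrb1) the 5' part had the larger one, for example 0.33 against 0.20 for Kif5a and -0.001 against -0.58 for Dync1i2.

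Each side was also tested alone. On the right, 5 of 7696 genes (0.065%) passed edgeR's quasi-likelihood test and 0 of 25 motor genes did, with 6 motor genes and 635 of all genes (8.25%) at an unadjusted p under 0.05. DESeq2 called 1 motor gene, again Dynll2, among 12 of 13469 genes (0.0891%). Right-sided Dynll2 ran from 68.0 through 101 to 125 CPM in WT and stood at 139.6, 184, 221, 231 and 170.1 CPM in BERKO, without overlap (log2 0.98 ± 0.22, adjusted p = 0.0985, and 0.89 ± 0.22 with 0.189 without the 3 WT libraries). The share of all genes without overlap was not counted for a single side. Klc1 on that side was at 84.4 ± 24.8 and 134 ± 29.2 CPM (0.66 ± 0.24, adjusted p = 0.455), Dync1i1 at 195 ± 39.3 and 133 ± 24.1 (-0.56 ± 0.21, 0.455) and Kif5a at 1089 ± 294 and 1451 ± 199 (0.41 ± 0.17, 0.514). Dync2li1 and Kif2a had right-sided differences of -0.68 ± 0.27 and -0.68 ± 0.28.

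On the left, 0 of 6616 genes (0%) and 0 of 24 motor genes passed edgeR's quasi-likelihood test, 0 motor genes and 447 of all genes had an unadjusted p under 0.05, and DESeq2 called 0 motor genes and 3 of 10237 genes (0.0293%). Left-sided Dynll2 ran from 53.5 through 99.1 to 144 CPM in WT and stood at 105, 109, 119, 108 and 139 CPM in BERKO, which overlapped (0.26 ± 0.27). The smallest unadjusted p on the left were those of Kif21a (0.44 ± 0.26), Dync2li1 (-0.45 ± 0.27), Kif1b (0.32 ± 0.21), Kif3c (0.52 ± 0.35) and Dync1i1 (-0.31 ± 0.25, and -0.17 without the 3 WT libraries), all with an adjusted p of at least 0.807.

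Whether the genotype difference itself differed between sides was tested as an interaction, with the mouse as a block. Of 8308 genes 0 (0%) passed edgeR's quasi-likelihood test, and 0 of 25 motor genes, with 2 motor genes and 271 of all genes (3.26%) at an unadjusted p under 0.05 and 0 called by DESeq2. Those motor genes were Dynll2, with an interaction of -0.68 ± 0.33 on the log2 scale, and Kif3b, with 1.44 ± 0.70, each with an adjusted p of 0.998 in that test. Without the 3 WT libraries, which takes WT replicates 1 and 2 out of within-mouse tests, the Dynll2 interaction was -0.48 ± 0.36. Dynll2 was lower on the left than on the right in 5 of 5 BERKO mice and in 2 of 6 WT mice. Kif3b, on the other hand, was lower on the left in 5 of 6 WT mice and 2 of 5 BERKO mice. The interaction estimates of Kif2a (0.77 ± 0.50), Kif3c (0.58 ± 0.44) and Dync1i2 (0.45 ± 0.31) exceeded their SE but did not reach an unadjusted p of 0.05.

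**Figure D5:**
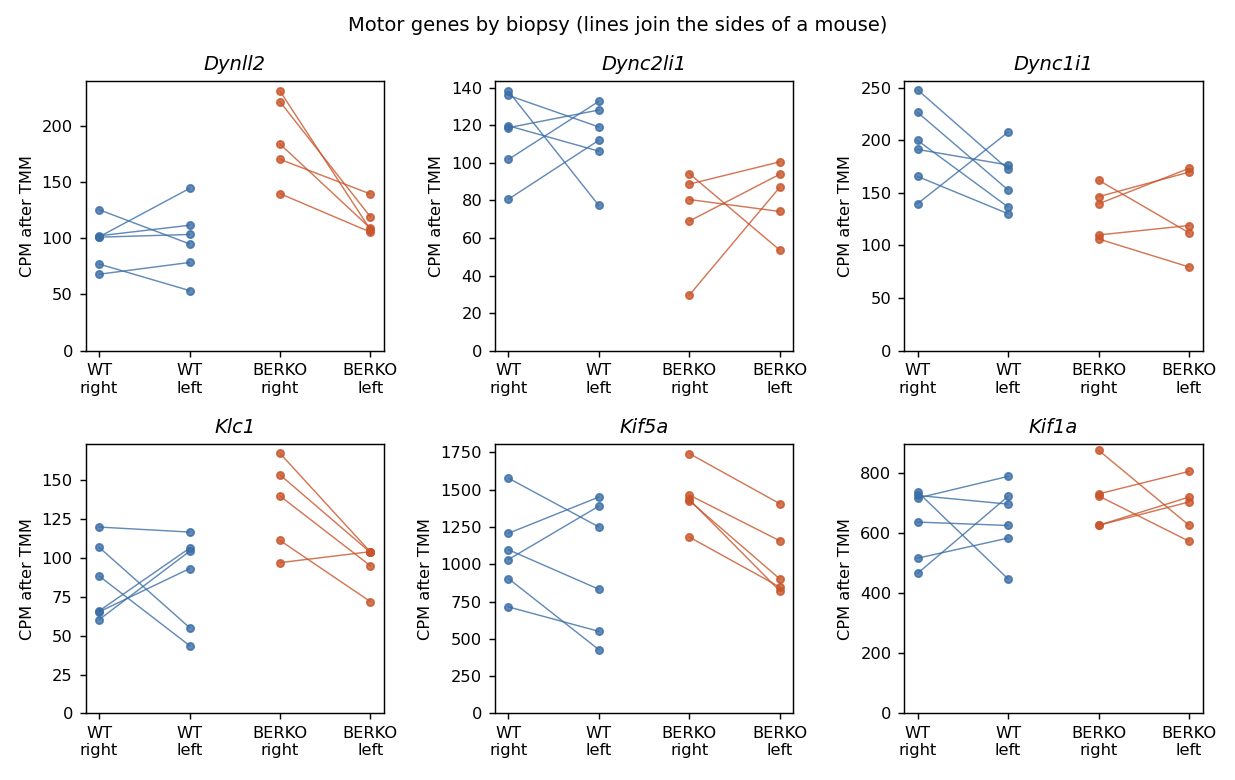
CPM after TMM of Dynll2, Dync2li1, Dync1i1, Klc1, Kif5a and Kif1a in each of the 22 biopsies, with a line joining the right and left biopsy of a mouse (6 WT, 5 BERKO). Right-sided BERKO values of Dynll2 (139.6 to 231) lie above all right-sided WT values, the left-sided values overlap, and Kif5a is lower on the left in all 5 BERKO mice.

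Left and right biopsies were compared within mice. Of 8308 genes 0 (0%) passed edgeR's quasi-likelihood test, and 0 of 25 motor genes, with 1 motor gene and 463 of all genes at an unadjusted p under 0.05 and 0 motor genes called by DESeq2, which called 32 of the 1528 genes it gave an adjusted p (2.09%). The gene was Kif5a, with a log2 difference of left minus right of -0.37 ± 0.12 and an adjusted p of 0.654. Kif5a was at 1089 ± 294 CPM on the right and 984 ± 442 on the left in WT mice, and at 1451 ± 199 and 1028 ± 251 CPM in BERKO mice. It was lower on the left in 4 of 6 WT and 5 of 5 BERKO mice. Kif1b, Dynll2 and Kif5b had left minus right differences of -0.24 ± 0.14, -0.31 ± 0.17 and 0.20 ± 0.14, and of -0.14, -0.45 and 0.32 without WT replicates 1 and 2. Dynlt1b, a Tctex-type light chain, was at 8.93 ± 5.47 CPM on the right and 21.95 ± 4.62 on the left in WT mice (log2 over both genotypes 1.03 ± 0.54) and was higher on the left in 6 of 6 WT and 3 of 5 BERKO mice. Dynlt1b is 99.2% identical to Dynlt1c over 771 bases, so its count is uncertain.

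The remaining 24 genes had too few reads to be tested, and 20 of these had at least 1 read. The highest, Kif22, a chromosome-binding kinesin, had 107 reads in 10 biopsies, of which 95.3% were intronic. Kif9 had 80 reads, Kif26a 48 and Dynlrb2, a light chain of ciliated cells, 84. The mitotic kinesins Kif11, Kif23 and Kif20a had 6, 6 and 4 reads, beside markers of dividing cells that summed to 3.63 ± 3.68 CPM in WT and 5.80 ± 4.77 in BERKO mice. Kif13b, Kif15, Kif20b and Kif16bos had 0 reads in all 22 biopsies, and a count of 0 allows up to 3 reads over these libraries, for counting error only.

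Partners of the motors were read from lists of genes. As a background for the counts in these lists, 49.2% of all 9025 genes tested had a positive difference. An unadjusted p under 0.05 in edgeR's quasi-likelihood test was reached by 9.92% of them. In edgeR's quasi-likelihood test 0 of 12 dynactin subunits passed, 2 had an unadjusted p under 0.05 and DESeq2 called 0, with 4 positive and 8 negative differences and a median of -0.19 against -0.01 for all genes. Dctn4, a subunit of the pointed end, averaged 104 ± 32.4 CPM in WT and 62.4 ± 7.25 in BERKO mice (-0.73 ± 0.21, adjusted p = 0.2296), without overlap. Such a lack of overlap was found for 120 of all 9025 genes tested (1.33%). Capza2, a capping protein subunit, was at 313 ± 25.3 and 249 ± 30.2 CPM (-0.33 ± 0.13, adjusted p = 0.414), and Dctn5 and Actr1a had differences of -0.39 ± 0.23 and -0.29 ± 0.18.

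Of 26 tested kinesin cargo adaptors 18 had a positive difference (median 0.13), with 0 called by edgeR's quasi-likelihood test or DESeq2 and 3 at an unadjusted p under 0.05. Over all genes the shares were 49.2% positive and 9.92% at an unadjusted p under 0.05. Clstn1, calsyntenin 1, which docks vesicles to kinesin light chains, averaged 279 ± 72.2 CPM in WT and 397 ± 45.5 in BERKO mice (0.51 ± 0.17, adjusted p = 0.314). Ppfia3, a liprin (0.60 ± 0.28), Madd, an adaptor of Kif1a and Kif1b (0.46 ± 0.22), and Arl8b, a lysosomal GTPase that recruits kinesin (0.64 ± 0.32), followed. Of 16 dynein regulators and adaptors 10 were positive (median 0.11), 0 passed by either tool and 1 had an unadjusted p under 0.05, namely Ccdc64 (1.41 ± 0.65, 5.30 ± 5.49 against 14.1 ± 5.30 CPM). Nde1, Ccdc88a and Hook2 had differences of 0.58 ± 0.29, 0.65 ± 0.34 and -1.12 ± 0.60.

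The 4 tested axonemal dynein genes, which drive the beating of cilia, all had negative differences (median -0.28, 0 called by edgeR's quasi-likelihood test or DESeq2 and 0 at an unadjusted p under 0.05). These were Dnah1, Dnal4, Dnal1 and Dnaic1, at -1.27 ± 0.76, -0.32 ± 0.22, -0.23 ± 0.22 and -0.12 ± 0.39. Of 9 tested myosins, the motors of actin filaments, 5 were positive (median 0.22), 0 passed by either tool and 2 had an unadjusted p under 0.05, Myo5b (-1.98 ± 0.85) and Myo18a (0.50 ± 0.24). Among all genes 49.2% were positive and 9.92% had an unadjusted p under 0.05. Kifc2 and Kifc3, kinesins outside the naming rule, had differences of -0.18 ± 0.19 and 0.87 ± 0.71, and 0 of them had an unadjusted p under 0.05 or were called by edgeR's quasi-likelihood test or DESeq2.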

How the data were processed

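Per the labels' protocols, STRT libraries of 22 needle biopsies were sequenced in 3 lanes. The authors deposited counts of reads (whole numbers) for each feature and, in a second table, the ratio of each count to the ERCC spike-in reads of its library (recomputed here to within 4.9e-09). Build mm9, Bowtie and TopHat2 2.0.12 come from the submitters' processing notes. Read filters and the making of features are not given in the sources used here. Counts are reads after PCR, so their precision covers counting error only. Deeper WT libraries are measured more precisely than BERKO libraries.

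All 64 count columns were matched to biopsies, reading the last digit of a name as the mouse number, and lanes were summed. There is 1 lane for BERKO replicate 5 on the left. Chi-square per gene was 0.69 to 0.849 between lanes 1 and 3 of a biopsy and at least 4.34 between biopsies of a group. Gene counts are sums over features that carry a single symbol, and the 5.22% of reads in other features stayed out of them. Spike-in and ribosomal features were left out.

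Tests used edgeR 4.0.16 (quasi-likelihood, robust, two-sided, TMM, default filter) in R 4.3.3, with Benjamini-Hochberg adjustment over all genes or features tested and a threshold of 0.05. TMM factors ran from 0.948 to 1.09. SE is the log2 difference over the square root of F. Alternatives used DESeq2 1.42.0, other scalings and filters, promoter features only, a replicate block, samples left out, and limma 3.58.1 on log2 of the ratio plus 1. The fits were tested on simulated data.

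The labels name a mouse for each biopsy, and right and left biopsies of a mouse were blocked. Which columns make up a mouse rests on the reading of the last digit, which the values do not settle. Their deviations from the group means correlated by -0.13 to 0.36, and 5 of 11 right biopsies correlated best with their own left biopsy. Mice are taken as separate animals per the labels.

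Named genes were the 10 smallest p for genotype, the 5 smallest for each other comparison, the 10 highest in CPM, the most abundant of each family, and up to 4 per pathway list. The members and lists were chosen with earlier results of these data known. Near copies were searched with blastn 2.17.0 (at least 80 bases and 95% identity) and promoters read from the RefSeq table of GRCm38.p6, which was not joined to the mm9 positions.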

Additional observations from a re-analysis of the deposited data

Results flagged for a closer look

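In WT mice the level of Dynlrb1, the roadblock light chain of dynein, was 348.6 CPM in replicate 6, far below the other 5 WT mice, which lay between 498.7 and 578.1 CPM. The gap to the nearest mouse was 0.654 of the whole range. This was 1 of 40 groups of mice examined for a value far from the others (2.5%), and chance alone marks about 1 group in 20.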

How the results depend on the processing

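By edgeR's quasi-likelihood test no motor gene was called when any 1 mouse was left out, in any of the comparisons (DESeq2 was not run that way). Dynll2 alone accounts for each gene call that appeared: 1 motor gene passed for both sides summed with spike-in scaling, with DESeq2 and with limma on the deposited ratios (log2 0.97, 0.78 and, on the log2(ratio + 1) scale, 0.0589), and 1 on the right without the filter on low counts and with DESeq2 (0.96 and 0.98). Of all genes these settings called 45 of 9025, 34 of 6725 and 97 of 9025 for both sides summed, and 17 of 13833 and 12 of 13469 on the right. Without that filter 1 motor gene feature passed, a CDS feature of Kif3a with 0 reads in WT and 34 in BERKO, named after its values were seen, among 139 of 83369 features (0.167%). Spike-in scaling gave summed log2 differences of 0.39 for kinesins and 0.15 for dyneins, and promoter features only gave -0.14 for dyneins. Of all genes called, 57.1% were higher in BERKO with TMM and 95.6% with spike-in scaling.

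Small differences turned sign, always without a call. With spike-in scaling Dynll1 was at 0.18, Dynlrb1 0.0674, Kif3a 0.15, Dync1i2 0.10 and Dync1li2 0.14. On the deposited ratios these were 0.0568, 0.0338, 0.0253, 0.0192 and 0.0145 on the log2(ratio + 1) scale. With promoter features only, Kif5c was at -0.15, Dynll1 at 0.0825 and Dync1i2 at 0.0815. Without the 3 WT libraries that stood apart, Dynll1 was at 0.0862. Leaving out each mouse gave -0.12 to 0.0746 for Dynll1 and -0.15 to 0.0543 for Dync1i2. The cause was not tested.

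WT and BERKO mice share only replicate numbers, and mice of the same number correlated by -0.03 to 0.06 in their deviations. With the replicate block 0 motor genes passed, Dynll2 was at 0.70 (adjusted p = 0.139, edgeR's quasi-likelihood test), Dynll1 at 0.10 and Dync1i2 at 0.0612. Without the mouse block the left against right and interaction comparisons again gave 0 motor genes. At this depth 24 motor genes had too few reads to be tested.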
